A study of Bos taurus with 12 samples.

Results

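The interleukins and their receptors were examined in endometrium, the lining of the uterus, of 3 cows that received povidone-iodine (PVP-I, an iodine-releasing antiseptic) in the uterus. Members were chosen by name: all probes that were not controls and whose gene name on the array was IL followed by a digit, without IL8. This gave 74 genes on 127 probes, of 17117 gene names and 43622 probes in all, and the probe with the highest mean signal stood for its gene. By role, the 74 genes were 34 ligands, 34 receptors and 6 antagonists or decoys (IL1RN, IL1F5, IL1R2, IL18BP, IL13RA2 and IL22RA2).

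Total RNA of biopsies taken from the same animals on day 0, 2, 7 and 14 was labelled with cyanine-3 and hybridised to 12 one-colour Agilent bovine arrays, 3 per day. The labels call the animals fertile cows and give the PVP-I day and the animal of each sample, but no age, cycle stage or uterine horn, and they do not say whether the day 0 biopsy came before the antiseptic. No untreated cow was among the samples, so the days cannot be told apart from anything else that ran with time. Cow coincided with slide, and day with the position on the slide. Markers of the labelled tissue were measured: over 6 epithelial and 7 stromal markers the mean log2 signal per array, relative to the array's 75th percentile, was 1.27 to 2.91 and 3.12 to 3.99, and no marker of either list was below background on all arrays. The day 2 array of cow 3 stood apart, with 63.2% of its probes well above background against 71.3 to 76.0% on the other arrays.

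The arrays were named by the columns of the deposited value table, which disagreed with the file links of GEO for 10 of 12 arrays. All results that follow rest on that naming. Read by the file links, 0 interleukin genes were called on day 2 (0 at an unadjusted p under 0.05) and 0 on day 7 (0 unadjusted), and 1, IL19, on day 14, all in the same limma model. Of all 33539 probes, 0 were then called on day 2, 0 on day 7 and 237 on day 14, so the loss was not particular to the interleukins.

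Interleukins are secreted signals between leukocytes, epithelium and stroma, and each acts through a receptor of 1 or more chains on the receiving cell. IL-1 alpha and IL-1 beta bind IL1R1, which recruits IL1RAP and signals through MYD88, whereas IL1RN occupies IL1R1 without signalling and IL1R2 binds IL-1 as a decoy. The IL-6 family signals through the shared chain IL6ST, the common gamma chain family through IL2RG, and most of these receptors use JAK kinases and STAT factors. In the uterus, IL-1 and IL-6 are known as early signals of inflammation after infection or injury.

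The probes that carry the results are given as the first 30 of their 60 bases, 5′ to 3′, as listed in the scanner files, because each value reported is the signal of 1 such oligonucleotide. Capitals mark, in the IL1B probes, the part of a 50-base run that probes 3 and 4 have in common.
IL34 probe 1: tagccaaatgccacatcttgccatagttta
IL1RN probe 1: tggaaagtgtcctgttctctgtgacttaag
IL1R1 probe 1: tggggaagggtccacctgtaactcggatat
IL6 probe 1: tatcctcatcctgagaaaccttgagaattt
IL13RA1 probe 1: gtccttctgctgtatttgaaaaggctcaag
IL17B probe 1: agtgcttgtgtctgggctgcgtgaacccct
IL1B probe 1: gactgaagtgacttagcatagcatagcatt
IL1B probe 2: aataactgtggaaccaatttccgggttaga
IL1B probe 3: attttcgaggTGGCCAGGATATAACTGACT
IL1B probe 4: agcTGGCCAGGATATAACTGACTTCAGAAT

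On the build of the scanner files, HGSC Btau 3.1, the whole probes lay at chr18:861638-861697 on the minus strand (IL34), chr11:48543380-48543439 on the plus strand (IL1RN), chr11:7132730-7132789 on the plus strand (IL1R1), chr4:32760426-32760485 on the plus strand (IL6) and chr7:60229649-60229708 on the minus strand (IL17B). The IL1B probes lay on the minus strand at chr11:48249271-48249330, chr11:48249630-48249692, chr11:48250103-48250162 and chr11:48250096-48250155, and the files give no position for the IL13RA1 probe. Exon or untranslated-region positions were not determined, as no annotation of that build was used here. The longest run that probes of different member genes had in common was 15 bases, and 76 of the 127 probes carried a RefSeq accession of the same symbol, 3 one of another symbol and 48 none that matched. One of the 3 was the third IL6 probe, whose accession belongs to LOC517016 and whose signal was below background on all 12 arrays.

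Many interleukin genes were not well above background in this tissue. On at least 3 arrays 42 of the 74 were, beside 13665 of all 17117 gene names. A probe below background does not show that its gene was unexpressed. Of the 74, 29 were well above background on all 12 arrays, 25 on no array and 7 on 1 or 2 arrays (IL13, IL15, IL18RAP, IL1F5, IL27, IL31RA and IL7R). The genes on no array included the T-cell cytokines IL2, IL4, IL5, IL9, IL17A, IL17F, IL21 and IL22, both subunits of the IL-12 receptor (IL12RB1 and IL12RB2), IL12B, which IL-12 and IL-23 have in common, and IL23R. The others were IL17C, IL1F7, IL1F9, IL1RAPL2, IL1RL2, IL20, IL22RA2, IL24, IL25, IL28RA, IL2RB, IL3 and IL5RA. Among ligands 16 of 34 were on no array, among receptors 8 of 34 and among antagonists or decoys 1 of 6. The number of interleukin genes above background lay between 31, on the day 2 array of cow 3, and 41, on the day 2 array of cow 2.

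**Figure D1:**
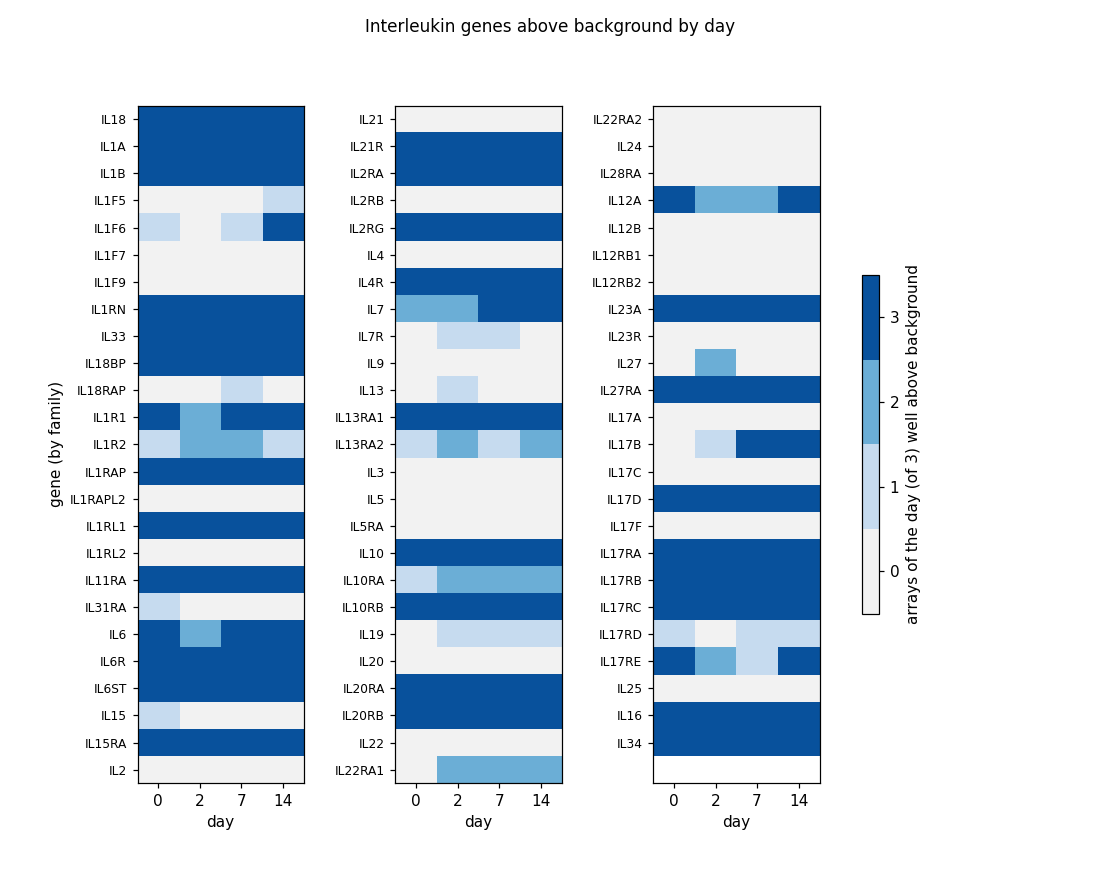
Number of arrays per day, of 3, on which the brightest probe of each of the 74 interleukin genes was well above background (colour, 0 to 3), by day (horizontal axis) and gene in family order (vertical axis). IL17B was above background on 0 arrays of day 0, 1 of day 2 and 3 each of days 7 and 14, whereas 29 genes were above it on all 12 arrays.

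Genes that lie together on the chromosome differed in whether they were well above background. In the IL-1 cluster, chr11:48187738-48543439 (356 kb), IL1A, IL1B, IL1F6 and IL1RN were measured, IL1F7 and IL1F9 were on no array and IL1F5 on 1. In the type 2 cluster, chr7:20450054-21098240 (648 kb), IL4, IL5 and IL3 were on no array and IL13 on 1, so none of the 4 could be tested. In the IL-10 cluster, chr16:3568292-3704513 (136 kb), IL10 was on all 12 arrays and IL19 on 3, and IL20 and IL24 on none. In the IL-1 receptor cluster, chr11:6934286-7444869 (511 kb), IL1R1, IL1R2 and IL1RL1 were measured, IL1RL2 was on no array and IL18RAP on 1.

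The 42 genes well above background on at least 3 arrays were tested with limma, with terms for the day and the cow, and p-values were adjusted by Benjamini-Hochberg over all 33539 probes kept. On day 2 against day 0, IL1RN and IL34 rose and no interleukin gene fell: 2 of 42 (4.76%), beside 2.91% of the 13665 genes tested in either direction, 1.88% higher and 1.02% lower. On day 7 against day 0, IL1R1, IL1RN, IL6, IL13RA1, IL17B and IL34 rose and none fell: 6 of 42 (14.3%), beside 19.1% of all genes in either direction, 10.6% higher and 8.52% lower. The share of interleukin genes called was thus near the background on day 7. Of these 6, IL17B was above background on no day 0 array, so its difference from day 0 was partly fixed by the filter. The median log2 change of the 42 was 0.28 on day 2 and 0.21 on day 7, beside 0.01 and 0.04 over all genes, and 26 and 28 of them were above 0.

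No interleukin gene passed on day 14 against day 0, where 0.102% of all genes did. The later days gave 0 calls as well, with 8 unadjusted for day 7 against day 2 (0.542% of all genes called) and 8 for day 14 against day 7 (0.146%). The median of the 42 was 0.16 for day 14 against day 0 and -0.14 for day 14 against day 7. A moderated F-test over the 4 days called IL1R1, IL1RN, IL17B and IL34, 4 of 42 (9.52%), beside 8.36% of all genes. The filter limit on IL17B holds for that count as well.

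**Figure D2:**
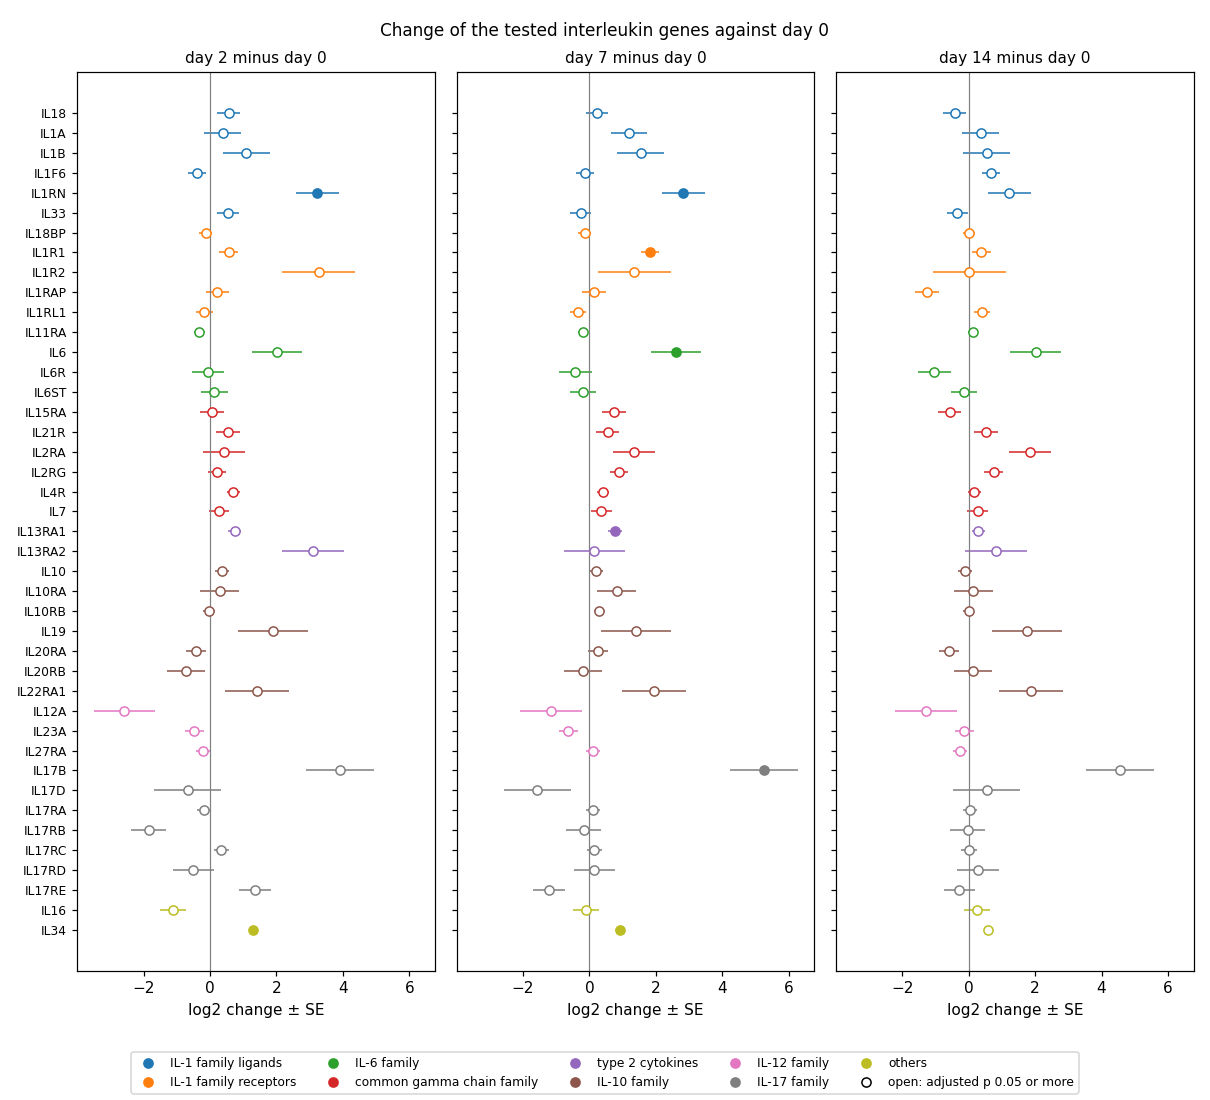
Log2 change of each of the 42 tested interleukin genes on day 2, 7 and 14 against day 0 (horizontal axis, point with its standard error), grouped by family in colour. Filled points passed an adjusted p of 0.05: IL1RN and IL34 on day 2, IL1R1, IL1RN, IL6, IL13RA1, IL17B and IL34 on day 7, and no gene on day 14.

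The calls depended on which cows entered. Without cow 1 no probe of the 33539 was called on day 2 or day 7, and without cow 2 0 were called on day 2 and 213 on day 7, none of them the brightest probe of an interleukin gene. Without cow 3, 8 interleukin genes were called on day 2 (IL13RA2, IL17D, IL17RB, IL17RE, IL1R2, IL1RN, IL21R and IL34) and 12 on day 7. Over all probes 841 were then called on day 2 and 6229 on day 7, against 846 and 6100 with all cows. Leaving out the day 2 array of cow 3 alone gave 4 interleukin genes on day 2 (IL13RA2, IL17RB, IL17RE and IL34) and 8 on day 7. Over all probes it gave 566 and 6724.

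IL1RN, the secreted antagonist that blocks IL1R1, had the largest change among the calls of day 2. Its log2 signal in cows 1, 2 and 3 was -2.49, -3.69 and -3.45 on day 0, -0.17, -0.14 and 0.36 by day 2, 0.19, 0.91 and -2.23 by day 7, and -1.66, -1.42 and -2.87 by day 14. All day 2 arrays lay above all day 0 arrays, and so did those of day 7, where cow 3 was only just above the highest day 0 array. The log2 change was 3.23 ± 0.64 (SE, n = 3 cows, limma adjusted p = 0.0432), a 9.37-fold higher signal, on day 2 and 2.83 ± 0.64 (adjusted p = 0.0223), 7.12-fold, on day 7. On day 14 it was 1.22 ± 0.64 (adjusted p = 0.318), and the days overlapped.

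The day 2 call of IL1RN was close to the threshold, and of 10 alternatives 7 lost it and 1, the file links, turned its direction. Its adjusted p was 0.06 without the cow block, 0.0563 without the filter on dim probes, 0.0525 after quantile normalisation and 0.0851 without the day 2 array of cow 3. The gene's second probe gave 2.74 ± 0.78 on day 2 (limma adjusted p = 0.102) and 2.66 ± 0.78 on day 7 (adjusted p = 0.0482). The third, which maps over 1167 bases of the genome, was not well above background on any day 0 array and gave an at least 2.61-fold higher signal on day 7 (adjusted p = 0.0179). That probe entered the test only through the later days, so its difference from day 0 was partly fixed by the filter. Of the other probes, both higher in every cow on days 2 and 7, the brightest alone passed on both days.

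IL1R1, the signalling receptor of IL-1, was called on day 7. Its log2 signal in cows 1, 2 and 3 was -5.78, -5.14 and -5.49 on day 0, -4.38, -4.84 and -5.50 by day 2, -3.75, -3.01 and -4.15 by day 7, and -5.01, -5.01 and -5.24 by day 14. All cows were highest on day 7, and every day 7 array lay above every array of day 0. The log2 change was 1.83 ± 0.28 (SE, n = 3, limma adjusted p = 0.00694), 3.56-fold, on day 7, against 0.56 ± 0.28 on day 2 (adjusted p = 0.299) and 0.38 ± 0.28 on day 14 (adjusted p = 0.469). Its second probe gave 1.89 ± 0.38 on day 7 (adjusted p = 0.0148). The F-test over the 4 days gave IL1R1 an adjusted p of 0.0286.

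**Figure D3:**
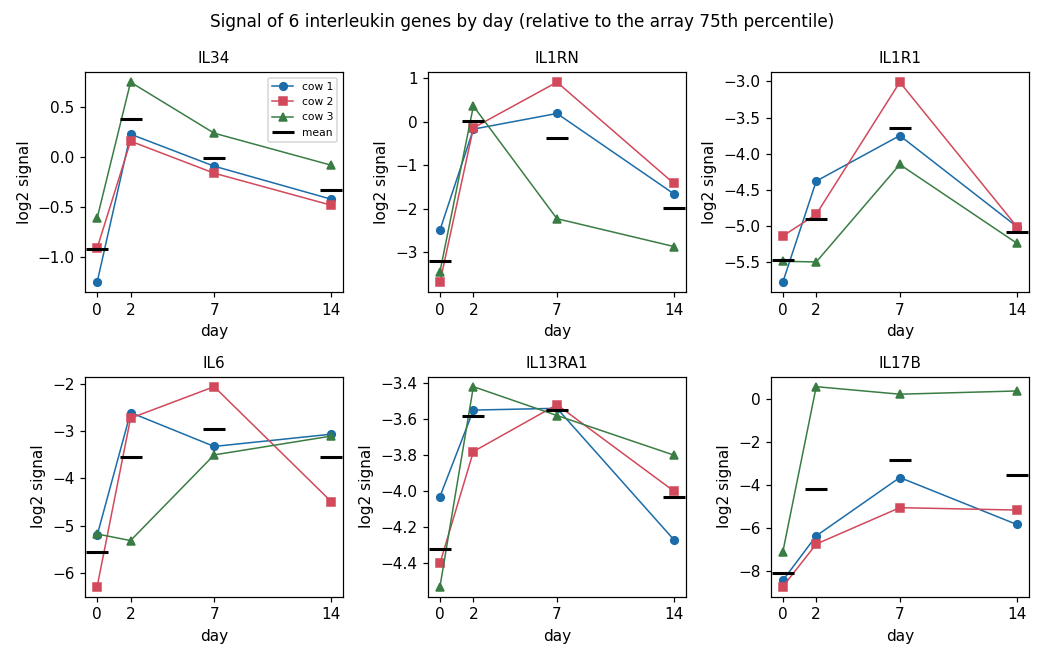
Log2 signal relative to the array's 75th percentile (vertical axis, scale differs by panel) by day (horizontal axis) for the 6 interleukin genes called on day 7 against day 0, 1 line per cow and a black bar for the mean of 3. IL34 and IL1R1 ran in one order of days in cows 1, 2 and 3 apart from the day 2 array of cow 3 in IL1R1, whereas cow 3 ran below cows 1 and 2 in IL1RN on day 7 and in IL6 on day 2, and above them in IL17B on every day.

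IL1B, the main secreted agonist of IL1R1, was not called through its brightest probe, and its 4 probes differed. The brightest read -2.61, -2.44 and -1.67 in cows 1, 2 and 3 on day 0, -0.61, -1.49 and -1.35 by day 2, 0.60, 0.14 and -2.82 by day 7, and -1.33, -1.47 and -2.31 by day 14. Cows 1 and 2 had their highest value on day 7, where cow 3 had its lowest, so that days 0 and 7 overlapped. The change on day 7 was 1.54 ± 0.71 (SE, n = 3, limma adjusted p = 0.159).

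In the remaining IL1B probes cow 3 was higher on day 7 than on day 0, like the other cows. Probe 2 read -6.13, -6.07 and -5.83 on day 0 and -2.79, -3.00 and -4.88 by day 7, without overlap, a change of 2.45 ± 0.41 (limma adjusted p = 0.00912). Probe 4 gave 1.14 ± 0.24 on day 7 (adjusted p = 0.0176), and probe 3, which has most of its bases in common with probe 4, gave 0.99 ± 0.30 (adjusted p = 0.0527). All 4 probes were higher on day 7 in cows 1 and 2, and all but the brightest also in cow 3. With any probe allowed to stand for its gene, IL1B joined the day 7 calls, which then numbered 7.

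**Figure D4:**
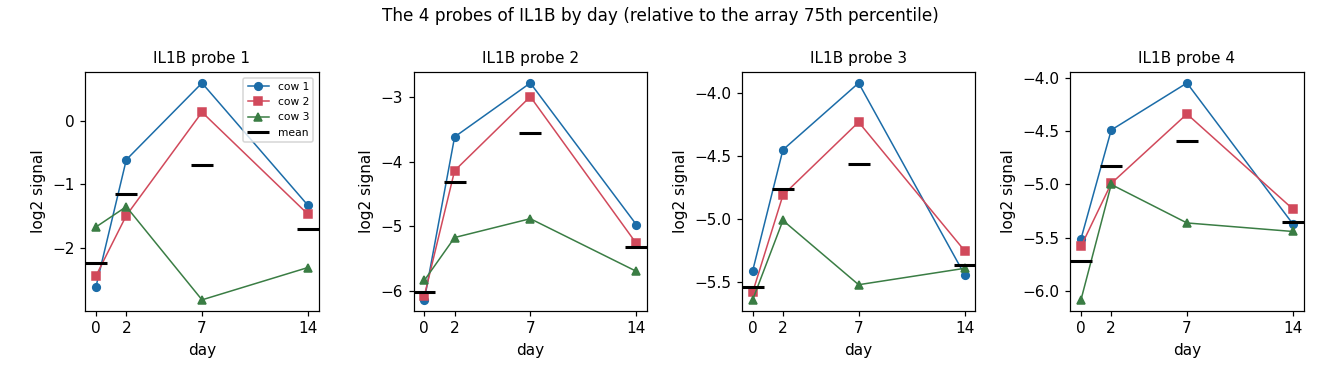
Log2 signal of the 4 IL1B probes relative to the array's 75th percentile (vertical axis, scale differs by panel) by day (horizontal axis), 1 line per cow and a black bar for the mean of 3. On day 7 cow 3 read -2.82 at the brightest probe, below its day 0 value of -1.67, whereas at probe 2 it read -4.88, above its day 0 value of -5.83.

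With all cows, the other IL-1 family ligands and the decoy receptor did not pass. IL1A, the cell-associated agonist, read -3.72, -4.63 and -3.72 in cows 1, 2 and 3 on day 0, -2.92, -3.33 and -4.69 by day 2, -1.87, -2.94 and -3.69 by day 7, and -4.08, -2.64 and -4.29 by day 14. Cow 1 stood highest on day 7, and cow 3, at -3.69, lay just above the highest day 0 arrays at -3.72. The day 7 difference was 1.19 ± 0.55 (SE, n = 3, limma adjusted p = 0.161). The decoy IL1R2 read -8.19, -8.61 and -4.79 on day 0, -3.68, -3.21 and -4.90 by day 2, -5.36, -5.42 and -6.74 by day 7, and -7.64, -8.61 and -5.31 by day 14. Cows 1 and 2 stood high on day 2 and cow 3 was level between days 0 and 2, a difference of 3.27 ± 1.1 (adjusted p = 0.148). Without cow 3 it was 4.95 (limma adjusted p = 0.0331). Cow 3 was the cow that differed, so that outcome was partly fixed by leaving it out. Without only the day 2 array of cow 3 the difference was 4.31 and did not pass (adjusted p = 0.0976). It was 2.65 without cow 1 (adjusted p = 0.63) and 2.20 without cow 2 (adjusted p = 0.533).

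IL18, an interferon-gamma inducer that like IL-1 beta is cut by caspase-1, read -1.51, -1.55 and -1.61 on day 0, -0.77, -0.81 and -1.42 by day 2, -1.76, -1.25 and -0.99 by day 7, and -1.71, -1.44 and -2.83 by day 14. IL33, an alarmin of epithelium and stroma, read -1.46, -1.09 and -1.13 on day 0, -0.89, -0.52 and -0.64 by day 2, -2.07, -1.15 and -1.25 by day 7, and -1.40, -2.28 and -1.06 by day 14. In both genes all day 2 arrays lay above those of day 0, and days 7 and 14 overlapped with day 0. The day 2 differences did not pass, at 0.56 ± 0.34 for IL18 (SE, n = 3, limma adjusted p = 0.378) and 0.54 ± 0.32 for IL33 (adjusted p = 0.364).

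IL1RAP, the co-receptor of IL1R1, had lower values on day 14 than on day 0 in all 3 cows, with no overlap. Its brightest probe read -3.29, -2.96 and -2.61 on day 0 and -3.81, -4.01 and -4.82 by day 14, a change of -1.26 ± 0.35 (limma adjusted p = 0.112), and its second probe gave -1.34 ± 0.24 (adjusted p = 0.0619). The IL-33 receptor IL1RL1 read 3.95 to 4.29 on day 0 and 3.35 to 4.72 later, but its other probe was below background on all 12 arrays. IL18BP, which neutralises IL-18, gave differences between -0.14 and 0.01 on the 3 later days. On day 7 the 8 IL-1 family receptors and binding proteins thus held 1 call, IL1R1, among 5 tested. The 9 ligands and antagonists held IL1RN among 6 that day, when 19.1% of all genes were called. On day 2 IL1RN alone passed among these, beside 2.91% of all genes.

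IL34, a ligand of the macrophage growth factor receptor CSF1R, had the smallest standard error of the 6 called genes. Its log2 signal in cows 1, 2 and 3 was -1.25, -0.91 and -0.61 on day 0, 0.23, 0.16 and 0.75 by day 2, -0.09, -0.16 and 0.24 by day 7, and -0.42, -0.48 and -0.08 by day 14. Each cow was highest on day 2, lower on day 7 and lower again on day 14, and the arrays of each later day lay above all those of day 0. The log2 change was 1.30 ± 0.14 (SE, n = 3, limma adjusted p = 0.0116), 2.47-fold, on day 2 and 0.91 ± 0.14 (adjusted p = 0.00724), 1.89-fold, on day 7. On day 14 it was 0.59 ± 0.14 (adjusted p = 0.09).

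A second IL34 probe gave 1.01 ± 0.15 on day 2 (limma adjusted p = 0.0204) and 0.56 ± 0.15 on day 7 (adjusted p = 0.0346), so that both probes passed on both days. CSF1R, its receptor, read 0.79, 0.58 and 0.49 in cows 1, 2 and 3 on day 0, 1.86, 1.79 and 1.36 by day 2 and 2.82, 1.98 and 1.02 by day 7. CSF1R was higher in every cow on both days and passed on day 7 (1.32 ± 0.29, adjusted p = 0.02) but not on day 2 (1.05 ± 0.29, adjusted p = 0.0965).

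IL6, the cytokine of the acute-phase response, was called on day 7. Its log2 signal in cows 1, 2 and 3 was -5.21, -6.30 and -5.18 on day 0, -2.60, -2.72 and -5.32 by day 2, -3.32, -2.05 and -3.50 by day 7, and -3.06, -4.49 and -3.10 by day 14. Cows 1 and 2 were already high on day 2, where cow 3 stayed at its day 0 level on the array with the fewest probes above background, and all cows were above every day 0 array on days 7 and 14. The log2 change was 2.61 ± 0.76 (SE, n = 3, limma adjusted p = 0.048), 6.1-fold, on day 7, against 2.02 ± 0.76 (adjusted p = 0.184) on day 2 and 2.01 ± 0.76 (adjusted p = 0.194) on day 14.

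This call also lay close to the threshold, with an adjusted p of 0.0626 without the filter on dim probes, 0.0571 after quantile normalisation and 0.0859 after normexp background correction. A second IL6 probe gave 3.06 ± 0.78 on day 7 (limma adjusted p = 0.0316). The ligand-binding chain IL6R read 1.97, 2.13 and 1.76 on day 0, 1.95, 2.33 and 1.40 by day 2, 1.04, 1.64 and 1.90 by day 7, and 1.83, -0.15 and 1.07 by day 14, with overlap on every day. The signalling chain IL6ST read -1.79, -1.39 and -2.44 on day 0, -1.60, -1.58 and -2.04 by day 2, -2.25, -2.08 and -1.85 by day 7, and -1.76, -2.84 and -1.47 by day 14. Its days overlapped too, and the day 7 difference was -0.19 ± 0.40 (adjusted p = 0.768). IL11RA, the IL-11 receptor chain, gave differences of -0.32 to 0.13 and did not pass, and IL31RA was above background on 1 array.

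IL13RA1, which pairs with IL4R in the receptor form that binds both IL-4 and IL-13, was called on day 7. It read -4.03, -4.40 and -4.53 in cows 1, 2 and 3 on day 0, -3.55, -3.78 and -3.42 by day 2, -3.54, -3.52 and -3.58 by day 7, and -4.27, -4.00 and -3.80 by day 14. All arrays of days 2 and 7 lay above those of day 0. The change was 0.74 ± 0.20 (SE, n = 3, limma adjusted p = 0.088) on day 2 and 0.77 ± 0.20 (adjusted p = 0.0315), 1.7-fold, on day 7. Its partner IL4R read -1.56, -1.32 and -1.52 on day 0 and -1.03, -0.60 and -0.66 by day 2, also without overlap (0.70 ± 0.19, adjusted p = 0.0883). The ligand IL4 was above background on no array and IL13 on 1.

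The decoy IL13RA2, which binds IL-13, was above background on 1 array of day 0 and 2 of day 2. It read -7.30, -7.94 and -5.58 on day 0 and -2.86, -3.01 and -5.68 by day 2 in cows 1, 2 and 3, and -6.96, -7.93 and -5.48 by day 7. Cows 1 and 2 stood high on day 2, and cow 3 was level over these 3 days. The day 2 difference was 3.09 ± 0.93 (limma adjusted p = 0.116). Without cow 3 it was 4.68 (adjusted p = 0.0292), and without only the day 2 array of cow 3 it was 4.41 (adjusted p = 0.0341). Cow 3 was the cow that differed, so both outcomes were partly fixed by what was left out. The difference did not pass without either of the other cows. It was 2.41 without cow 1 (adjusted p = 0.599) and 2.17 without cow 2 (adjusted p = 0.489).

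IL17B, a ligand of IL17RB, had the largest fitted change on day 7, and no day 0 array was above background. It read -8.42, -8.71 and -7.10 in cows 1, 2 and 3 on day 0 and -6.35, -6.73 and 0.58 by day 2, with cow 3 alone above it. On day 7 it read -3.64, -5.04 and 0.23 and on day 14 -5.82, -5.15 and 0.38, with all arrays above background. Cow 3 lay far above the other cows on all 3 later days. Since IL17B entered the test only through days 2, 7 and 14, its difference from day 0 was partly fixed by the filter.

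Against day 0 the IL17B signal was at least 5.17-fold higher on day 2 (limma adjusted p = 0.0849), where 1 array of 3 was above background and carried the bound, at least 13.2-fold on day 7 (adjusted p = 0.0138) and at least 8.05-fold on day 14 (adjusted p = 0.0818). These bounds set each day 0 array at the higher of its lowest well-detected signal and the probe's own. The day 7 call was lost without the cow block (adjusted p = 0.137) and after normexp correction (adjusted p = 0.11), and without cow 3 the fitted log2 change was 4.22 (adjusted p = 0.0134) in place of 5.26. Without cow 3 it was 2.02 in place of 3.91 on day 2 and 3.08 in place of 4.55 on day 14.

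Other IL-17 family genes gave no call, and several set the cows apart; those that follow were chosen after their values were seen. IL17RB, the receptor chain for IL-17B and IL-25, read -0.61, -0.72 and 0.76 on day 0, -2.80, -3.02 and -0.30 by day 2, and 0.11, -0.57 and -0.62 on day 7 in cows 1, 2 and 3. All cows were lower on day 2 than on day 0, with overlap between the days, and the difference was -1.85 ± 0.53 (limma adjusted p = 0.104). IL17RE, the IL-17C receptor chain, read -4.93, -5.91 and -4.83 on day 0, -2.69, -3.70 and -5.24 by day 2, and -5.55, -6.90 and -6.91 by day 7. Days 2 and 7 did not overlap there, and the difference was -2.58 ± 0.48 (adjusted p = 0.0607). At their brightest probes the shared chains IL17RA and IL17RC differed from day 0 by at most 0.34 on any day. Their other probes ran wider without a call, up to 0.84 on day 2 for IL17RA and from 0.98 on day 2 to -0.99 on day 14 for IL17RC.

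**Figure D5:**
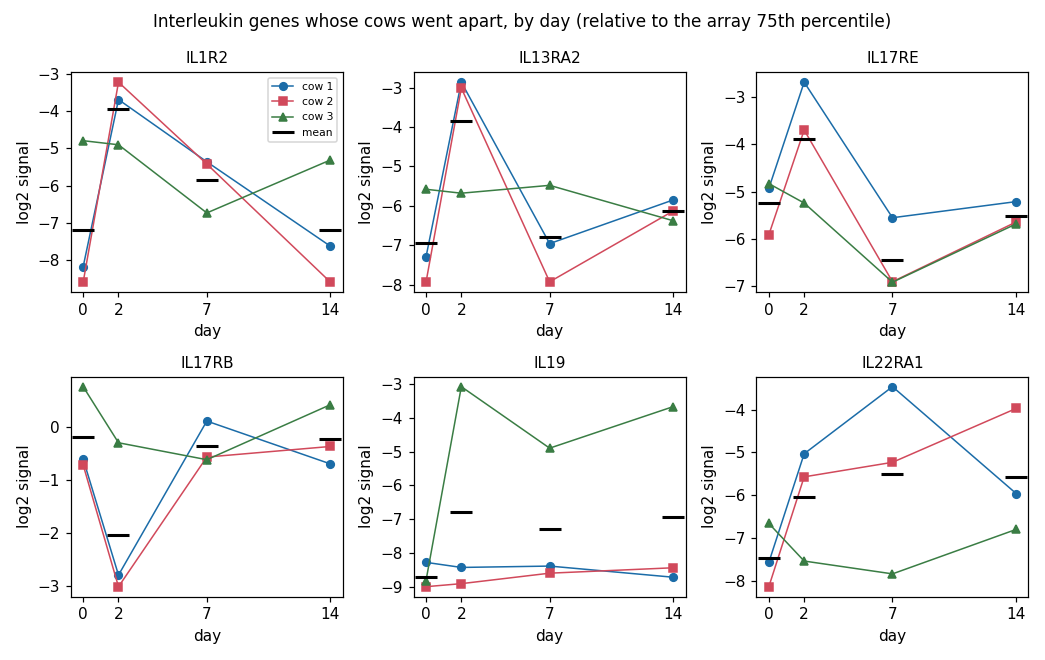
Log2 signal relative to the array's 75th percentile (vertical axis, scale differs by panel) by day (horizontal axis) for 6 interleukin genes whose cows ran apart, chosen after their values were seen, 1 line per cow and a black bar for the mean of 3. On day 2 cows 1 and 2 stood high in IL1R2, IL13RA2 and IL17RE and low in IL17RB, and cow 3 alone had IL19, at -3.08.

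In the IL-10 family, 7 of 12 genes were tested and none was called. IL10, which restrains macrophage cytokine output, read -4.82, -4.72 and -4.60 on day 0, -4.09, -4.32 and -4.67 by day 2, -4.25, -4.35 and -4.94 by day 7, and -4.45, -4.87 and -5.15 by day 14, with overlap on every day. IL10RA, its ligand-binding chain, was above background on 7 arrays and read -6.46, -7.15 and -6.56 on day 0, -5.87, -5.77 and -7.64 by day 2, -6.51, -6.02 and -5.19 by day 7, and -6.53, -5.89 and -7.32 by day 14. Its days overlapped as well, with a day 7 difference of 0.82 ± 0.58 (limma adjusted p = 0.348). IL19 was well above background in cow 3 alone, at -3.08, -4.90 and -3.67 on days 2, 7 and 14, and read -8.28 to -9.00 on the other 9 arrays. IL22RA1, the epithelial receptor chain of IL-22, was on no array of day 0 and read -5.03, -5.57 and -7.54 by day 2 and -3.46, -5.23 and -7.84 by day 7, above background in cows 1 and 2.

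The common gamma chain family held 6 tested genes of 13 and no call. IL2RG, the shared chain itself, read -4.15, -4.46 and -4.57 on day 0 and -2.58, -3.73 and -4.20 by day 7 (0.89 ± 0.28, limma adjusted p = 0.0641). IL2RA, a marker of activated and regulatory T cells, read -4.44, -4.37 and -3.94 on day 0 and -3.15, -1.55 and -2.51 by day 14, without overlap (1.85 ± 0.63, adjusted p = 0.163). IL15, a growth factor of uterine natural killer cells, was above background on 1 array of day 0 and read -6.90, -6.65 and -6.14 on day 0, -6.97, -7.12 and -7.52 by day 2, -6.83, -6.50 and -6.62 by day 7, and -6.51, -6.70 and -8.48 by day 14. At that level no change of IL15 could be measured, while its receptor chain IL15RA was on all arrays. In the IL-12 family IL23A, IL12A and IL27RA were tested without a call, and IL27 was above background on 2 arrays, both of day 2. IL16, a chemoattractant of CD4+ cells, read 1.17, 0.76 and 1.78 on day 0 and 0.57, -0.19 and -0.04 by day 2, without overlap (-1.12 ± 0.39, adjusted p = 0.159).

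Beyond the members, calls among the genes that carry interleukin signals are read against all genes tested. Of those, 1.88% were higher and 1.02% lower on day 2, and 10.6% and 8.52% on day 7. The gene lists here and below were chosen with earlier results of these data known. Their counts and medians are therefore no independent test against that background. Of 19 signalling adaptors and kinases 17 were tested, and 1 rose on day 2 and 4 on day 7, with none lower and medians of 0.11 and 0.14. STAT5B, a factor downstream of the common gamma chain, passed on both days (1.07 ± 0.21, limma adjusted p = 0.0415, and 1.93 ± 0.21, adjusted p = 0.00261), and STAT2, TRAF3IP2 and STAT6 passed on day 7 (0.79, 0.87 and 0.99). Of 14 feedback and target genes 13 were tested: PIM1, a kinase gene induced by STAT factors, rose on both days (1.64 ± 0.31 and 2.55 ± 0.31, adjusted p = 0.0371 and 0.00355), and CEBPB and NFKBIZ rose on day 7, with medians of 0.42 and 0.56.

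Genes of IL-1 processing included calls on both days, beside 2.91% of all genes called on day 2 and 19.1% on day 7. Of 7 tested, NLRC4, an inflammasome sensor, and PYCARD, the adaptor that links sensors to caspase-1, passed on both days. NLRC4 changed by 2.79 ± 0.47 on day 2 (limma adjusted p = 0.0295) and 1.86 ± 0.47 on day 7 (adjusted p = 0.0315), and PYCARD by 1.64 ± 0.31 (adjusted p = 0.037) and 1.13 ± 0.31 (adjusted p = 0.0377). The median of the 7 was 1.12 on day 2 and 0.82 on day 7, beside 0.01 and 0.04 over all genes. A list of other cytokines and receptors, TNF among them, had 10 genes tested. OSMR, the oncostatin M receptor chain that pairs with IL6ST, passed on both days (2.05 ± 0.28, adjusted p = 0.0181, and 2.04 ± 0.28, adjusted p = 0.00499). On day 7 IFNGR2 and TNF were higher and the epithelial cytokine TSLP lower (-1.02). That list thus held 1 call of 10 on day 2 and 4 of 10 on day 7, with medians of -0.17 and 0.85. LIF, OSM, CSF2RB and CSF3 were below background on all arrays, and none of these lists held a call on day 14.

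Some markers of leukocytes, smooth muscle and endothelium passed on day 2, day 7 or both. These calls, and those of the cell types that follow, are read against all genes tested. Of those, 1.88% were higher and 1.02% lower on day 2, and 10.6% and 8.52% on day 7. In a biopsy of mixed tissue, more cells of a type and more RNA per cell cannot be told apart. Of 10 macrophage markers CD68 passed on day 2 (2.45 ± 0.36, limma adjusted p = 0.0206) and CD68, CD14 and CSF1R on day 7, with list medians of 1.19 and 1.1. Their summed signal, in multiples of the array's 75th percentile, ran from 13.97 to 17.07 on day 0, 17.77 to 28.84 on day 2, 15.92 to 54.76 on day 7 and 7.72 to 39.18 on day 14. Only 1 of 7 neutrophil markers, S100A12, passed on day 2, and the same 1 on day 7. The sums over the 7 were 3.96 to 45.54, 19.56 to 72.34, 10.32 to 90.47 and 8.50 to 79.84.

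Smooth muscle markers passed on day 7 for 3 of 5 (ACTA2, DES and TAGLN), and the cells or layer they came from were not tested. The sums over the 5 were 39.32 to 57.58 on day 0, 60.95 to 423.28 on day 2, 149.28 to 316.56 on day 7 and 60.07 to 333.97 on day 14. Of 12 T and NK cell markers NKG7 rose and ZAP70 fell on both days and CD2 rose on day 7, with list medians of -0.15 on day 2 and -0.01 on day 7. Their sums were 6.06 to 6.64 on day 0, 6.80 to 7.49 on day 2, 7.03 to 9.06 on day 7 and 6.08 to 8.39 on day 14. Of 6 endothelial markers PECAM1 passed on day 2 and PECAM1 and VWF on day 7. No marker of B, mast, epithelial or stromal cells passed on either day, and no list had a marker below background on all arrays. The part of these cell types in the interleukin changes was not tested.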

How the data were processed

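Per the file headers, the scanner files hold spot intensity made with Agilent Feature Extraction 11.5.1.1, whereas the submitters' processing notes name 10.5.1.1, which was not settled. The authors also deposited a log2 value table, and no source used here says how it was made. Set against the scanner files, a column of it (medians -0.07 to 0.08) was the log2 processed intensity less the array's 75th percentile and less the median of the probe over 12 arrays, to within 0.00229 in the median. That comparison alone gave its scale, its centring and its direction. Each table column matched 1 scanner file (r = 1.0, next best at most 0.5197), but only 2 files were linked to the same sample. Table names were used, since under them 20 probes put all arrays of a cow 8-fold or more from the rest, against 0 under the file links. Under the table names cow coincided with slide, and cow and slide cannot be told apart. The count therefore does not settle which naming is right.

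Values here are log2 processed intensity minus each array's 75th percentile (824.8 to 1117.6). From 43653 probes, 31 were left out for outlier flags, besides 1417 control spots, and no spot was saturated. The 33539 probes well above background on at least 3 of 12 arrays were fitted in limma 3.58.1 (R 4.3.3) with day and cow (6 residual and 2.33 prior degrees of freedom), after a check on simulated data, and p-values were Benjamini-Hochberg adjusted at 0.05. The design text gives the pairing by cow. Residuals about each day's mean had an average r of 0.285 in 18 same-cow pairs (lowest 0.0235, 15 over 0.1). Such pairs also had the slide in common, so this r does not tell cow from slide. The number of cows, 3, limits the precision, and p-values measure the spread between their biopsies.

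Values by array were given for every member called and for IL1A, IL1B, IL1RN, IL1R1, IL1R2, IL6, IL6R, IL6ST, IL10, IL10RA, IL15, IL18 and IL33; other members are given by range, count or value. Members and gene lists were chosen with earlier results of these data known. Alternatives were no block, no filter, quantile scaling, normexp (offset 50) with quantile scaling, array weights, the file links, any probe of a gene, and leaving out each cow or the day 2 array of cow 3.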

Additional observations from a re-analysis of the deposited data

How the results depend on the processing

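The counts of called interleukin genes on day 2, day 7 and in the F-test were 2, 6 and 4. Of all 33539 probes, 846, 6100 and 2623 were called. Without the cow block 1, 5 and 2 interleukin genes were called, beside 429, 4445 and 1565 probes in all. Quantile scaling gave 1, 5 and 2 (746, 6266 and 2611 probes), and normexp with quantile scaling 1, 4 and 2 (983, 6644 and 3847 probes). No filter gave 1, 7 and 3 (528, 4542 and 1443 of 43622 probes). Array weights, whose fit did not converge cleanly, gave 12, 13 and 31, beside 5078, 10432 and 20619 of the 33539 probes. They gave 14 for day 7 against day 2, beside 10147 probes, and 13 for day 14 against day 7, beside 9411. Leaving out the day 2 array of cow 3 gave 4, 8 and 7 interleukin genes, beside 566, 6724 and 3033 probes. It gave 2 for day 7 against day 2 (IL13RA2 and IL17RE), beside 135 probes. Leaving out 1 cow gave 0 to 8 on day 2, 0 to 12 on day 7, 0 to 10 in the F-test, 0 to 6 for day 7 against day 2 and 0 on day 14: the lowest without cow 1 or cow 2, the highest without cow 3. Without cow 3, 841 probes were called on day 2, 6229 on day 7 and 3289 in the F-test. For day 7 against day 2 they numbered 2132. Any probe of a gene gave 2, 7 and 6 interleukin genes. The file links gave 0, 0 and 1 (IL19), and 1 (IL19) for day 14 against day 0 and against day 7.

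The file links turned the median of the interleukin genes to -0.21 on day 2, -0.03 on day 7 and -0.30 on day 14. On day 2 they turned IL13RA1 to -0.45, IL17B to -0.95, IL1R2 to -0.74, IL1RN to -1.01, IL34 to -0.02 and IL6 to -0.32. On day 7 they turned IL13RA1 to -0.31, IL1RN to -0.50, IL34 to -0.05 and IL6 to -0.19, and on day 14 IL6 to -0.26. The median on day 2 was 0.08 with normexp, 0.40 without the day 2 array of cow 3 and 0.13 to 0.48 without 1 cow, and on day 7 it was 0.10 with normexp, 0.39 with array weights and 0.21 to 0.47 without 1 cow. Of 160 values of named genes under an alternative, 112 kept direction and side of the threshold, 29 lost it, 8 gained it and 11 turned. The cause was not tested, except that leaving out a cow takes away samples. Without the filter IL12RB1 and IL12RB2 passed on day 7, both below background on all arrays.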

Other observations

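Of 21 interleukin genes with several tested probes, all probes of a gene had the same sign in 15 on day 2, 16 on day 7 and 19 on day 14 against day 0.

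A further 4 probes outside the naming rule have a RefSeq symbol of IL and a digit: 2 of IL32, 1 of IL36B and 1 of IL9R. One IL32 probe was above background on all 12 arrays, with -2.63, -3.38 and -0.76 in cows 1, 2 and 3 on day 0 and -1.94, -2.60 and -0.63 on day 2 (0.53 ± 0.27, limma adjusted p = 0.304). The days overlapped, and cow 3 was highest on each of the 4 days. The other 3 probes were below background on all arrays.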
